A study of Homo sapiens with 3 samples.

Results

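The gene expression of control DLD1 cells was described from the 1 array, of 3 in the series, that was hybridised with RNA of cells given a control siRNA. DLD1 is a human cell line from a colorectal adenocarcinoma. The cells received the control siRNA at 50 nM with a lipid transfection reagent, Lipofectamine RNAiMAX, and 500 ng of total RNA went into the biotin-labelled Affymetrix whole-transcript array. The protocol gives 48 hours after transfection and the design text of the series gives 24 hours, and which of these holds was not settled. The other 2 arrays came from DLD1 cells given siH19-1 or siH19-2, siRNAs against the noncoding RNA H19, at the same 50 nM, and served here only in the choice of 1 probe set per gene. Cells without siRNA or reagent were not among the samples, so the baseline is that of transfected cells of 1 culture of 1 line.

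The lining of the colon is a single sheet of epithelial cells that is renewed from stem cells at the base of pits called crypts. WNT signals, which keep the protein beta-catenin from being destroyed, hold the crypt base in a proliferating state, while BMP and Notch signals steer the daughter cells towards absorptive colonocytes or secretory goblet, enteroendocrine and tuft cells. Each fate has its own marker genes, and colorectal cancer cells often carry a WNT pathway that is active without the signal from outside. A baseline of a tumour line is read against these lineages, pathways and the receptors through which the cells could be addressed.

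A gene was taken as 1 symbol with the probe set of highest mean over the 3 arrays, which gave 22411 genes. Their log2 signals ran from 1.95 to 19.93, with a median of 4.23 and quartiles at 3.11 and 7.16. The 366 olfactory receptor genes, which encode odorant receptors of the nose, had a median log2 signal of 2.84 and a 95th percentile of 3.65. A gene at or below that percentile is called near the floor, which held 9278 genes or 41.4% of all. A gene in the top 10% of signals, at log2 9.52 or above, is called bright, which held 2248 genes or 10%. The remaining 10885 genes (48.6%) lay between these thresholds. Of the 17151 protein-coding genes, to which the signalling, receptor and metabolic lists belong, 36.4% were near the floor and 11.3% bright.

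These bands describe signal and are no test. With 1 array there is no replicate, so no value has an SD and no difference between genes was tested. The signal of a gene depends on its probes as well as on its RNA, so the order of signals is not an order of transcript amounts. The only spread at hand was that among probe sets of the same symbol, whose median range was 0.40 log2 units over 528 genes, with a 90th percentile of 3.93. Some of these sets are copies of 1 locus on alternate haplotypes, as for SLC44A4, and some had equal signals. The range is therefore not an error of a signal. Near the floor does not mean that a transcript was absent, and 1790 genes lay within 0.2 log2 units of the lower threshold and 423 within 0.2 of the upper.

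**Figure D1:**
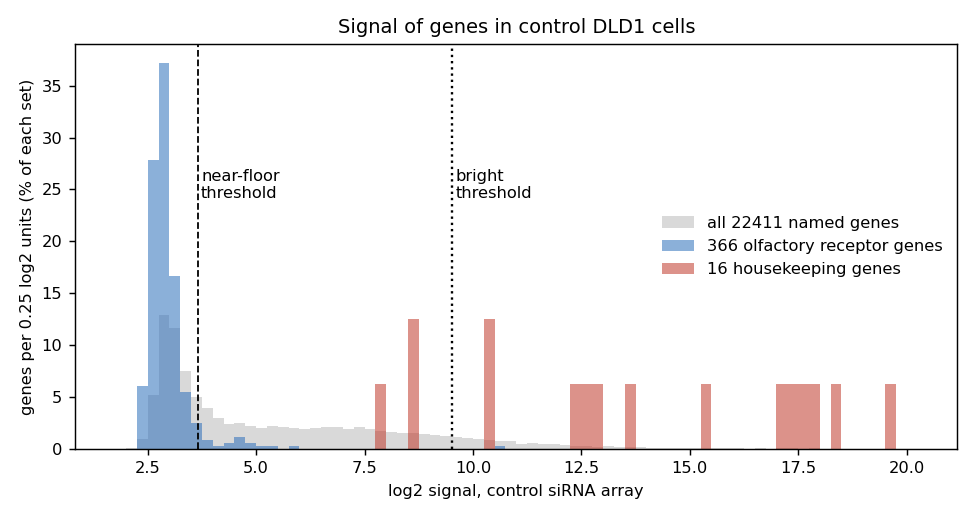
The histogram gives the log2 signal on the control siRNA array (x axis) against the percentage of each gene set per 0.25 log2 units (y axis) for all 22411 named genes, 366 olfactory receptor genes and 16 housekeeping genes. The olfactory receptor genes pile up around 2.84, below the dashed lower threshold of 3.65, and 13 of the 16 housekeeping genes lie beyond the dotted upper threshold of 9.52.

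The olfactory receptor genes define the floor, so their low place is no check of the scale. The high end was read from housekeeping genes. Of 16 housekeeping genes 13 were bright and 0 were near the floor, with a median log2 signal of 13.22. EEF1A1, the elongation factor that brings aminoacyl-tRNA to the ribosome, had a log2 signal of 19.53, the highest of the protein-coding genes. TUBA1B, an alpha-tubulin, had 18.38 and HSP90AB1, a constitutive chaperone, 17.93. Genes of this kind have processed pseudogenes of nearly the same sequence, from which their probes may not be separable. Values above 16, the ceiling of a 16-bit scanner in log2 units, were held by 68 genes, and how the deposited scale exceeds it is not stated.

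The label of a colon epithelial line was checked against markers. Of 12 measured markers of colon and intestinal epithelium 5 were bright, 4 lay between the thresholds and 3 were near the floor, where 10% and 41.4% are the bright and near-floor shares of all genes. The keratins of simple epithelia had log2 signals of 15.46 for KRT8 and 15.26 for KRT18, at percentiles 99.6 and 99.5 of all genes. The other KRT8 probe set had 11.93, which is also bright but lower than KRT18 and EPCAM. EPCAM, an adhesion molecule of simple epithelia, had 14.74, and E-cadherin, CDH1, had 10.27. The gut-restricted members were lower: CDH17, the liver-intestine cadherin, had 9.25 and CDX2, the homeobox factor of intestinal identity, 7.80. LGALS4 (3.50), CEACAM5 (3.02) and CDX1 (2.97), all typical of differentiated colon epithelium, were near the floor. The epithelial label was thus borne by bright signals, and the intestinal label by CDX2 and CDH17 above the floor.

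Markers of other cells were dim. All 5 fibroblast, 4 leukocyte and 4 endothelial markers and the 1 erythroid marker of the check were near the floor, with fibroblast markers between 2.84 and 3.45. In the longer lists, 18 of 22 mesenchymal genes and 18 of 20 leukocyte, endothelial and erythroid genes were near the floor. VIM, the intermediate filament protein of mesenchymal cells, had a log2 signal of 3.10, and PTPRC, the pan-leukocyte phosphatase CD45, had 3.01. CD68 (5.95), a lysosomal protein used as a macrophage marker, and FN1 and SNAI1 (both 4.69), a matrix protein and a repressor of E-cadherin, were the highest of these lists. Of 30 markers of distant tissues such as liver, muscle and lung 25 were near the floor, and ALB, the liver's serum albumin, had 2.97. PRSS1, a pancreatic trypsinogen with close paralogs, was the highest of them at 5.55.

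**Figure D2:**
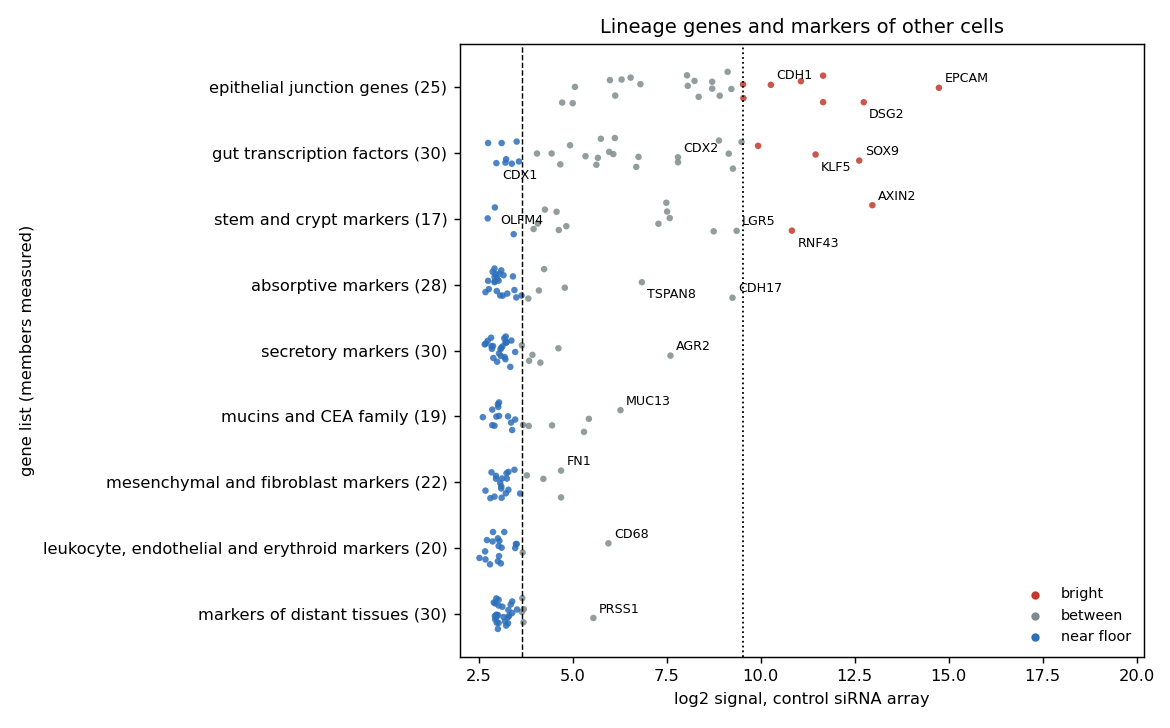
Each point is 1 gene at its log2 signal on the control siRNA array (x axis), with gene lists as rows (y axis, members measured in parentheses) and colours for the bright, between and near-floor bands; vertical jitter carries no value. The 25 epithelial junction genes lie right of the dashed threshold of 3.65, while 22 of 28 absorptive and 24 of 30 secretory markers lie left of it.

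In a chosen list of epithelial junction genes all 25 measured were above the floor, and 8 were bright (32.0%). Claudins were not among these 25 and were counted as a family, where 13 of 24 were near the floor. Of the cadherin family 17 of 21 were near the floor, so the count holds for the chosen list only. The bright members of the list covered several kinds of junction. DSG2 (12.74), DSP (11.66) and PKP2 (11.66) encode the cadherin, the plaque linker and the armadillo protein of desmosomes. TJP1, the tight junction scaffold ZO-1, had a log2 signal of 11.07. CTNNB1, beta-catenin, which links cadherins to actin and also carries the WNT signal, had 9.54, and MARVELD2, tricellulin of tricellular tight junctions, had 9.53, both just inside the bright threshold. The dimmest were EVPL (4.72) and PPL (5.00), plakins best known from stratified epithelia, and TJP3 (5.06).

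Of 30 measured transcription factors and splicing regulators of gut and epithelial identity 3 were bright and 8 near the floor. Their bright share, 10%, was near the 11.3% of protein-coding genes, and 26.7% were near the floor against 36.4%. SOX9, a factor of crypt progenitors, had the highest log2 signal at 12.62 (percentile 98.0). KLF5, a Krüppel-like factor of proliferating crypt cells, had 11.46 and FOXA1, a pioneer factor of endoderm, 9.93. GRHL2 (9.49), which maintains epithelial gene expression, and GATA6 (9.26), a zinc finger factor of gut epithelium, fell just under the bright threshold. ESRP2, an epithelial splicing regulator, had 9.15. Members near the floor included ATOH1 (3.11), which commits cells to the secretory lineage, GATA4 (3.38), the GATA factor of the small intestine, and NKX2-1 (3.23), the factor of lung and thyroid. CDX2 and CDX1, the paired caudal factors, differed by their bands, at 7.80 and 2.97.

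Differentiation markers were mostly near the floor in both main lineages. Of 28 absorptive markers 22 (78.6%) were near the floor and 0 bright. FABP1 (2.99) and FABP2 (2.68), which carry fatty acids in enterocytes, SLC26A3 (2.95), the chloride-bicarbonate exchanger of colonocytes, and SI (2.92), the brush border sucrase-isomaltase, had signals like those of olfactory receptor genes; SI was named after its value was seen. The exceptions beside CDH17 were TSPAN8 (6.84), a tetraspanin of gut epithelium, CA2 (4.79), a cytosolic carbonic anhydrase, LCT (4.24), KRT20 (4.10) and VIL1 (3.82), the actin bundler of microvilli. The last 3 lay within 1 log2 unit of the threshold.

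Of 30 secretory markers 24 (80%) were near the floor and 0 bright. AGR2, a disulphide isomerase needed for mucin folding, stood highest at a log2 signal of 7.60 (percentile 78.5), with TFF1, a trefoil peptide, next at 4.62. MUC2, the gel-forming mucin of goblet cells, had 3.47, TFF3, their trefoil peptide, 3.18, CHGA, the granin of endocrine cells, 3.34 and LYZ, the lysozyme of Paneth cells, 3.08. Among 19 mucins and carcinoembryonic antigen genes 13 were near the floor. MUC13, a membrane mucin of the gut, had the highest signal of that list at 6.27, followed by MUC20 at 5.43 and MUC5AC, a gel-forming mucin of stomach and airway, at 5.30.

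Markers of stem and crypt cells were less often near the floor than the differentiation markers. Of 17 measured members 14 were above the floor and 2 were bright. The bright share of 11.8% was near the 11.3% of protein-coding genes, and 17.6% were near the floor against 36.4%. The median of the list was 4.83, and MEX3A (4.26), TERT (4.07) and MSI1 (3.96) were the dimmest above the floor. In the shorter marker check 2 of 3 stem markers were near the floor and 0 were bright. AXIN2, a feedback inhibitor induced by beta-catenin, had a log2 signal of 12.97 (percentile 98.3), and RNF43, a ubiquitin ligase that removes WNT receptors, had 10.83. LGR5, the R-spondin receptor that marks crypt base stem cells, had 9.36, just under the bright threshold, and ZNRF3, the relative of RNF43, had 8.75. PROM1 (7.58), the surface antigen CD133, TNFRSF19 (7.51) and CD44 (7.49), a hyaluronan receptor, lay between the thresholds. OLFM4 (2.93) and SMOC2 (2.74), both markers of human or mouse crypt base cells, and LRIG1 (3.43), a brake on ERBB receptors, were near the floor, so these markers did not share a band. The other CD44 probe set had a log2 signal of 3.95.

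The promoter sequences of a few genes that span these bands are shown because they differ in the density of CpG dinucleotides, the sites of DNA methylation in mammals. The 150 bases just upstream of the start are given 5′ to 3′ on the gene's strand, from RefSeq windows of GRCh38.p14, with each CpG in capitals. The following 5 genes were above the floor, at log2 signals of 15.46 for KRT8, 11.66 for DSP, 7.80 for CDX2, 12.54 for KIT and 15.81 for CXCL5.
KRT8, minus strand, chr12:52926470-52926619: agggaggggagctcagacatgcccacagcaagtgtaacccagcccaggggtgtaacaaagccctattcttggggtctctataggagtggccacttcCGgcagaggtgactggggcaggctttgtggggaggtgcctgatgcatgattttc
DSP, plus strand, chr6:7541521-7541670: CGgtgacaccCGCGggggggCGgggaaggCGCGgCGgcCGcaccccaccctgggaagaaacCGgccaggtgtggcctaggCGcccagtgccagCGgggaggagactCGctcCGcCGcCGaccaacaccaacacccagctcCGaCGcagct
CDX2, minus strand, chr13:27969316-27969465: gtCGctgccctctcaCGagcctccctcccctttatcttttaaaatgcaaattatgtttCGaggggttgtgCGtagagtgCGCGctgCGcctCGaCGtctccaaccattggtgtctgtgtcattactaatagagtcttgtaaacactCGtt
KIT, plus strand, chr4:54657807-54657956: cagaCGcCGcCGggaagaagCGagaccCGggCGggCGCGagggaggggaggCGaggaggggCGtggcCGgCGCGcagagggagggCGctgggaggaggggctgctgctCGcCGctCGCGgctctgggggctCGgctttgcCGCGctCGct
CXCL5, minus strand, chr4:73998678-73998827: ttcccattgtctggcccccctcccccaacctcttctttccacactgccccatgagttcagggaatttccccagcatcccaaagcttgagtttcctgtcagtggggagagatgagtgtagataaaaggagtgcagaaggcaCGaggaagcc
The windows of DSP, CDX2 and KIT held 17, 10 and 22 CpGs in these 150 bases, whereas those of KRT8 and CXCL5 held 1 each with signals as high or higher. A gene can have other starts than the one shown, and the start that gave each signal was not measured. The following 4 genes mark differentiated absorptive cells, and had log2 signals of 2.99 for FABP1, 2.95 for SLC26A3 and 2.92 for SI, near the floor, and of 4.10 for KRT20.
FABP1, minus strand, chr2:88128063-88128212: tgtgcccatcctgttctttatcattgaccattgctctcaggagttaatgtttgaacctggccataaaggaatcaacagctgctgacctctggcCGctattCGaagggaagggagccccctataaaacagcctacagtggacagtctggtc
SLC26A3, minus strand, chr7:107803224-107803373: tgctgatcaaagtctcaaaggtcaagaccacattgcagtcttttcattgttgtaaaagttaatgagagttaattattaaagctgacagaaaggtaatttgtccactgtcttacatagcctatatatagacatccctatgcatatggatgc
KRT20, minus strand, chr17:40885243-40885392: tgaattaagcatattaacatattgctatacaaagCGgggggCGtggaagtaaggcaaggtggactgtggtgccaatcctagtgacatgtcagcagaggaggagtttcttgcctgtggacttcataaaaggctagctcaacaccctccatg
SI, minus strand, chr3:165078497-165078646: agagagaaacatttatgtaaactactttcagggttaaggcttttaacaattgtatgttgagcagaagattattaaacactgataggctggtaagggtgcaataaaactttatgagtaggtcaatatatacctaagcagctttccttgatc
FABP1 and KRT20 held 2 CpGs each in the shown bases, and SLC26A3 and SI held 0. These genes were picked with their signals known and illustrate the bands; they are no sample of them.

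Across protein-coding genes, 13935 of 17151 (81.2%) had a RefSeq window of 250 bases before to 50 after the start, and the first listed window was used. The ratio of observed to expected CpGs had a median of 0.89 (quartiles 0.78 and 0.99) in 1665 bright genes, of 0.83 (quartiles 0.67 and 0.94) in 7437 genes between the thresholds and of 0.77 (quartiles 0.42 and 0.92) in all. Motifs were searched on both strands as exact letters. GGGCGG, the core of the SP1 box, was in 72.6% of bright windows, 70.0% of windows between the thresholds and 59.9% of all. TATAAA, the TATA box, was in 6.01%, 5.81% and 9.24% of the same sets, and CCAAT in 40.7%, 36.7% and 36.4%. CTTTGAT, a short form of the TCF/LEF motif, was in 1.32%, 1.43% and 1.94%. For each motif but CCAAT the shares of the bright and between sets lay closer to each other than either lay to that of all genes, which include those near the floor. Of the shown genes, FABP1 held TATAAA, DSP and KIT held GGGCGG, and SLC26A3 and SI held CTTTGAT within their windows of 300 bases. A match of letters is a description of the window and not a site in use. The near-floor genes had windows too seldom (77.4%) for values of their own.

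Gene families showed which members stood out. Of 48 keratins 3 were bright, KRT8, KRT18 and KRT19 (10.13), and 33 were near the floor, while the next highest, KRT80 and KRT7, had only 4.84 and 4.82. Of 21 cadherins 17 were near the floor, and the others were CDH1, CDH17, CDH3 (8.62), the placental cadherin, and CDH24 (6.16). CLDN7, a claudin of the lateral membrane, was the 1 bright claudin of 24 at 9.69. CLDN4, CLDN3 and CLDN2 followed with log2 signals of 7.63, 6.15 and 5.71, while CLDN8, a sealing claudin of the distal colon, was near the floor at 2.88.

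Genes for the extracellular matrix and its receptors were counted next. Of 26 integrins 4 were bright: ITGB1 (11.78), the beta chain shared by many dimers, ITGA6 (10.83), a laminin receptor chain, ITGAV (10.69) and ITGA2 (9.88), a collagen receptor chain. The ITGB1 value is that of its brightest probe set, and its other 2 probe sets had log2 signals of 4.32 and 2.85. The leukocyte chains ITGAL and ITGAM (both 3.03) were near the floor. Of 41 collagens 35 were near the floor and the highest, COL23A1, had 4.21. Of 22 matrix metalloproteinases 19 were near the floor and MMP15, a membrane-anchored member, had 6.85. Of 8 laminin chains 4 were above the floor, led by LAMB1 (8.94) and LAMC1 (8.49).

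Among families of the membrane and cytoplasm, 9 of 11 annexins, which bind phospholipids with calcium, were above the floor and 4 were bright, with ANXA2 at 14.65 and ANXA5 at 11.94. ANXA13, an annexin of intestinal epithelium, was the dimmest at 2.72. In the S100 family of calcium-binding proteins S100A11 was bright at 10.54, and S100A10, the partner of ANXA2, had 7.86. Of 29 tetraspanins 22 were above the floor, led by TSPAN13 (13.10), CD151 (11.18), which binds laminin-receptor integrins, and CD9 (10.88). Of 12 galectins LGALS3 (11.53) and LGALS8 (9.86) were bright and 8, LGALS4 among them, were near the floor.

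The HOX genes, which record position along the body axis, were above the floor in 14 of 25 measured members. Their near-floor share of 44.0% and bright share of 8.0% lay near those of all genes, 41.4% and 10%. Of 8 HOXB genes measured 7 were above the floor and 2 bright, against 3 of 9 HOXC and 3 of 7 HOXD genes above the floor with 0 bright. In the order of the cluster in the RefSeq table, HOXB5, HOXB6, HOXB7, HOXB8 and HOXB9 were neighbours with log2 signals of 7.09, 7.59, 9.82, 7.05 and 9.72. The next analysed members on both sides, named after their values were seen, had lower signals, at 3.85 for HOXB2 and 3.87 for HOXB13. HOXB1, at the end of the cluster, had 2.63, and HOXA2, the 1 HOXA gene analysed, had 6.16. In the SOX family of transcription factors SOX9 was bright and SOX4 had 9.37, while 14 of 19 members were near the floor.

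**Figure D3:**
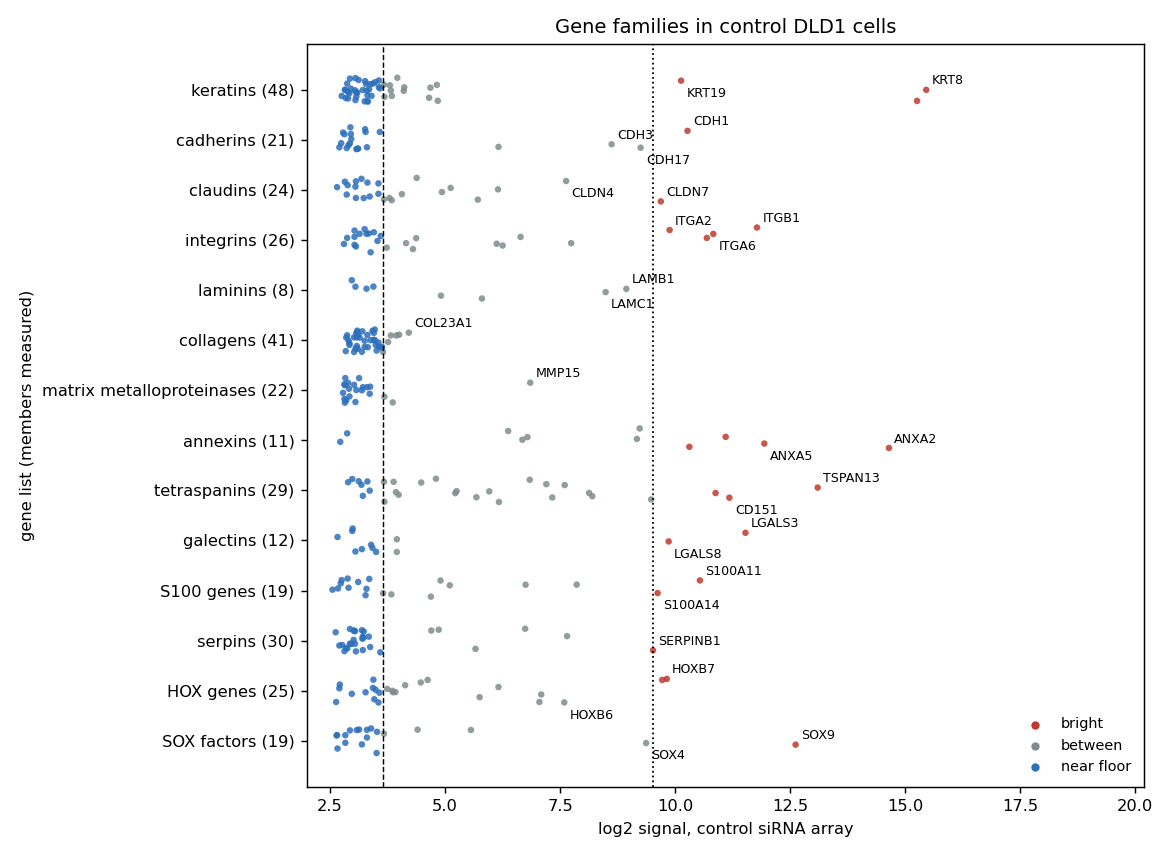
Each point is 1 gene at its log2 signal on the control siRNA array (x axis), with gene families as rows (y axis, members measured in parentheses) and colours for the bands; vertical jitter carries no value. In most families a few labelled members stand apart from a crowd near the floor, as KRT8 does at 15.46, whereas 9 of 11 annexins and 22 of 29 tetraspanins lie above the dashed threshold of 3.65.

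The WNT pathway was read from the outside in. Of 24 genes for WNT and R-spondin ligands and their carrier 14 (58.3%) were near the floor and 0 bright. WLS, the carrier that brings WNT proteins to the surface, had the highest log2 signal at 8.43. Of the 19 WNT genes measured 9 were above the floor, none higher than WNT5A, a mostly beta-catenin-independent ligand, at 4.93. WNT7A (2.64) and WNT2 (2.65) were the dimmest, and RSPO3, an R-spondin that enhances WNT signals, had 3.08.

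Of 31 WNT receptors and extracellular inhibitors 2 were bright and 12 near the floor. The shares were 6.45% and 38.7%, beside 11.3% and 36.4% of protein-coding genes. RYK, an atypical receptor tyrosine kinase that binds WNT proteins, had 11.47 and RNF43 had 10.83. LRP6, the co-receptor of the beta-catenin branch, had a log2 signal of 9.48. Of 9 frizzled receptors 6 were above the floor, with FZD6 at 7.69 and FZD5 at 5.28, and FZD9 was the dimmest at 2.46. Of 11 secreted WNT inhibitors 8 were near the floor and 3 between the thresholds, the highest being DKK3 at 4.55, named after its value was seen. SFRP1 (3.21), WIF1 (3.08), SFRP5 (2.92), DKK1 (2.88) and DKK4 (2.86) were among those near the floor.

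Inside the cell, 24 of 27 core and target genes of beta-catenin were above the floor and 7 were bright (25.9%). The kinases of the destruction complex, CSNK1A1 and GSK3B, had log2 signals of 11.84 and 9.92, and its scaffold APC had 8.01. The DNA-binding partners LEF1 and TCF7L2 had 9.49 and 8.78, and TCF7L1, a repressor of the same family, had 3.76. Of the genes that beta-catenin is known to induce, CCND1, the G1 cyclin D1, had 13.07, AXIN2 12.97, ETS2 11.07 and MYC, the growth-promoting factor, 9.59. SP5, another target, was near the floor at 3.51, and EPHB3, a crypt guidance receptor, had 4.83. Also between the thresholds were JUN (3.81), FOSL1 (5.28), NKD1 (6.16), ASCL2 (6.69), TNFRSF19 (7.51) and LGR5 (9.36) of the same list. FOSL1, NKD1 and ASCL2 were named after their values were seen. Target genes answer to many signals, and the activity of beta-catenin was not measured.

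**Figure D4:**
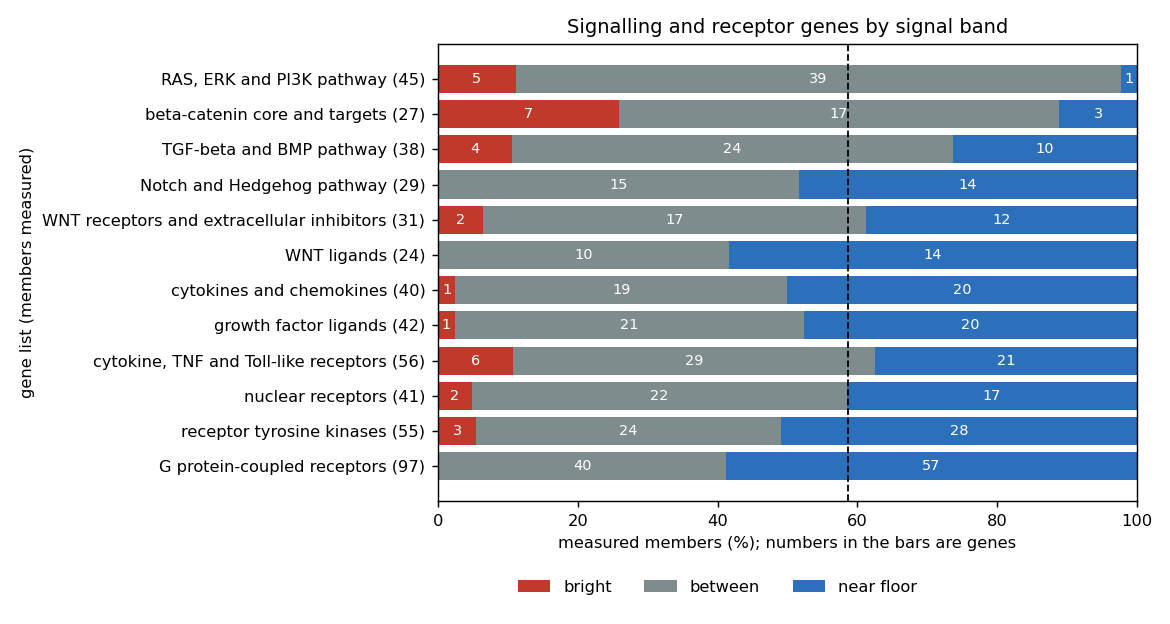
Stacked bars give the percentage of measured members (x axis) of 12 signalling and receptor lists (y axis) in the bright, between and near-floor bands, with the number of genes written in each segment. The near-floor segment starts left of the dashed line, which marks the near-floor share of all genes (41.4%, counted from the right), in the lists with a larger near-floor share, such as 57 of 97 G protein-coupled receptors, and right of it in the RAS, ERK and PI3K pathway with 1 of 45. The near-floor share of protein-coding genes was 36.4%. WNT receptors and inhibitors (38.7%) and cytokine, TNF and Toll-like receptors (37.5%) lay between these shares.

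The pathway from RAS to ERK and PI3K was above the floor in 44 of 45 measured genes, with 5 bright. Its bright share of 11.1% was near the 11.3% of protein-coding genes. PTPN11, the phosphatase SHP2 that links receptors to RAS, had a log2 signal of 12.30, NF1, a GTPase-activating protein that switches RAS off, 10.76 and GRB2, the adaptor of activated receptors, 9.54. The transcripts known to follow ERK activity lay apart from one another. PHLDA1 (11.81) and EGR1 (10.86) were bright, DUSP6, an ERK phosphatase, had 8.66, and SPRY4 and DUSP4, feedback inhibitors, had 4.74 and 3.89. PIK3CG, the PI3K subunit of leukocytes, was the 1 gene near the floor at 3.19, and PIK3CD, also a leukocyte form, had 3.96. Another 10 listed genes of this pathway were not analysed here.

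In the TGF-beta and BMP pathway 28 of 38 genes were above the floor and 4 were bright. The bright share of 10.5% was near the 11.3% of protein-coding genes, and 26.3% were near the floor against 36.4%. The bright ones were BMP4 (12.54, percentile 97.9), a ligand that in the gut comes chiefly from the mesenchyme, GDF15 (10.67), a stress-induced ligand, SMURF2 (10.42), a ubiquitin ligase for receptors and SMADs, and SMAD2 (9.84), which carries the TGF-beta signal. TGFBR2, the type II receptor, had a log2 signal of 9.47 and SMAD4, the common partner, 9.38. ID1, a target of BMP signals, had 7.18 while ID4 had 2.91. The BMP antagonists NOG (2.92) and GREM1 (3.43) and the inhibitory SMAD6 (3.04) were near the floor. The relatives ID2 (7.71), ID3 (4.47) and SMAD7 (6.26), named after their values were seen, were above it. BMP4 was thus bright with NOG and GREM1 dim, and the protein or its secretion was not measured.

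In the Notch and Hedgehog pathways 15 of 29 genes were above the floor and 0 were bright. JAG1, a Notch ligand, had 9.40, NOTCH2, a receptor, 8.73, and RBPJ, the DNA-binding partner, 7.91. HES1, the Notch target that restrains the secretory fate, had a log2 signal of 6.75, and HEY1 and HEYL, other targets, had 2.85 and 3.06. Hedgehog ligands were all near the floor, with SHH at 3.48, DHH at 2.68 and IHH, the ligand of colonocytes, at 2.59. The receptor PTCH1 had 6.64, and GLI1, the factor that Hedgehog signals induce, had 3.18.

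Of 40 cytokines and chemokines 20 were near the floor and 1 was bright. CXCL5, a neutrophil attractant, had a log2 signal of 15.81 at percentile 99.7, far above the next of the list, MIF, at 9.31. Its relatives CXCL8 and CXCL1, which act on the same receptors, had 8.85 and 7.60. CCL20, which draws lymphocytes to the gut epithelium, had 8.46, IL18, an epithelial cytokine, 7.85, and CXCL16 8.66. VEGFA, the angiogenic factor, had 6.42. TNF (2.83), IL1B (3.02), IL10 (2.82) and the interferon-induced CXCL9 (2.98), products mainly of leukocytes or of inflamed tissue, were near the floor. CXCR2 (3.56) and CXCR1 (2.74), the receptors of CXCL5 and CXCL8, named after their values were seen, were near the floor as well.

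Of 55 receptor tyrosine kinases 28 (50.9%) were near the floor and 3 bright. KIT, the receptor of stem cell factor, had the highest log2 signal at 12.54 (percentile 97.9), ahead of RYK and of MET, the receptor of hepatocyte growth factor, at 9.91. EGFR, the target of antibodies used in colorectal cancer, had 7.21, its relative ERBB3 6.93 and IGF1R, the receptor of insulin-like growth factors, 6.41. FGFR4 had 4.10, and the endothelial receptors KDR (2.87) and FLT1 (2.86) and the blood cell receptor FLT3 (2.81) were near the floor.

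The ligands of these receptors were set beside them by pair. Of 42 growth factor ligands 1 was bright and 20 were near the floor. EREG, epiregulin, a ligand of EGFR and ERBB4, had a log2 signal of 15.37 (percentile 99.6). TGFA, another EGFR ligand, had 7.32 and EGF itself 2.91. KITLG, the stem cell factor that binds KIT, had 7.39, so receptor and ligand of that pair were both above the floor. HGF, the ligand of MET, was near the floor at 2.91. EFNB2 and EFNA5, membrane-bound ligands of EPH receptors, had 8.81 and 7.55, and EPHA2 had 7.29.

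Ligand-activated transcription factors were counted over 41 genes, most of them nuclear receptors, of which 2 were bright and 17 near the floor. The shares were 4.88% and 41.5%, beside 11.3% and 36.4% of protein-coding genes. AHR, a sensor of aromatic compounds that belongs to another protein family, had the highest log2 signal at 13.58 (percentile 98.8). Of its known target genes CYP1A1 had 4.84 and CYP1B1, named after its value was seen, 8.92, with 6.57 in its other probe set. RORA, an orphan-type receptor of the clock and of lipid metabolism, had 10.22, and NR1D2, a clock repressor, 8.52. VDR, the vitamin D receptor, had 6.75 and PPARG, the fatty acid receptor of colonocytes, 5.88. The steroid receptors NR3C1 (3.02, glucocorticoid), ESR1 (3.02, estrogen) and PGR (2.66, progesterone) were near the floor.

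Of 56 receptors for cytokines, TNF family ligands and Toll-like ligands 6 were bright (10.7%) and 21 near the floor (37.5%). Both shares were near those of protein-coding genes, 11.3% and 36.4%. IL6ST, the signal chain gp130 shared by the interleukin-6 family, had a log2 signal of 11.31, while LIFR (2.78) and OSMR (2.89), chains that pair with it, were near the floor. The interferon receptor chains IFNGR1 and IFNAR1 had 10.86 and 10.56. Of the receptors of the death ligand TRAIL, the decoy TNFRSF10D (10.33) and TNFRSF10A (9.84) were bright, and TNFRSF10B (8.31) lay between the thresholds. TNFRSF11B, a soluble receptor that also binds TRAIL, had 4.43 and was named after its value was seen, and FAS had 6.61. TLR3, a sensor of double-stranded RNA, had 7.21 in these siRNA-transfected cells, TLR5, the flagellin sensor, 4.54, and TLR4, the sensor of lipopolysaccharide, 2.71.

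G protein-coupled receptors, a large class of drug targets, had the lowest median log2 signal of the receptor lists at 3.39, with 57 of 97 near the floor (58.8%) and 0 bright. Of the 10 adhesion receptors measured 9 were above the floor, and 5 of them were among the 6 highest of the list: ADGRA3 (9.32), ADGRL2 (9.23), ADGRG6 (9.07), ADGRE5 (9.03) and ADGRG1 (8.77). The other one of these was LGR5. ADORA2B, a low-affinity adenosine receptor of colon epithelium, had a log2 signal of 7.59 and LPAR1, a receptor of lysophosphatidic acid, 6.31. Of 14 chemokine receptors 13 were near the floor, CXCR4 (3.15) among them. PTGER4, a prostaglandin E2 receptor, had 3.50 and FFAR2, a receptor of short-chain fatty acids, 2.59.

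Glycolysis was read isoenzyme by isoenzyme, since many steps have forms that belong to different tissues. Of 31 genes 9 were bright and 7 near the floor. GAPDH had a log2 signal of 17.72, ENO1 15.26, PGK1 13.54, GPI 13.20 and PGAM1 11.64. Pyruvate kinase was represented by PKM at 14.22, with PKLR, the form of liver and red cells, at 3.22. Of the lactate dehydrogenases, LDHB had 15.11, LDHA 11.84 and LDHC, the form of testis, named after its value was seen, 3.60. At the entry of the pathway HK2, the inducible hexokinase, had 7.98. The other ENO1 probe set had 5.81, so its value depends on the probe set taken.

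**Figure D5:**
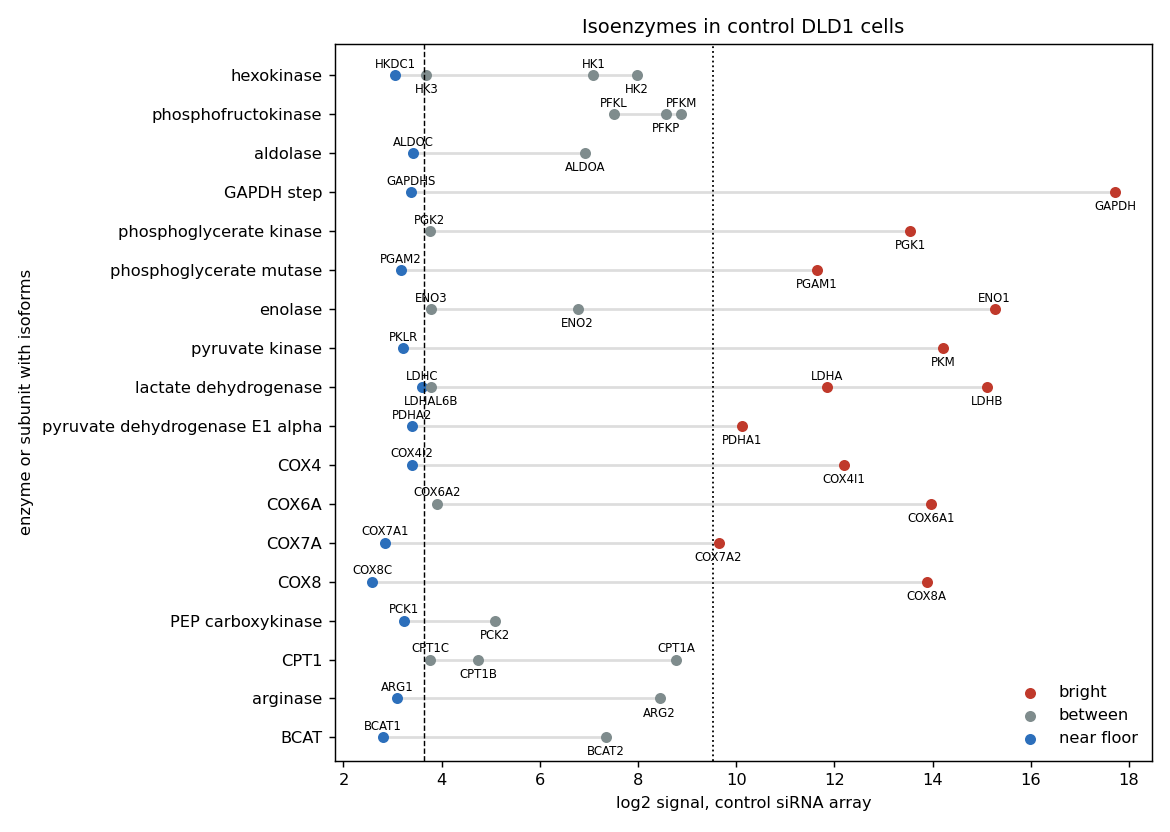
Each point is 1 gene at its log2 signal on the control siRNA array (x axis), with the enzyme or subunit it belongs to as the row (y axis) and colours for the bands. In rows such as pyruvate kinase (PKM 14.22, PKLR 3.22) and COX8 (COX8A 13.88, COX8C 2.58) the isoforms lie at opposite ends of the scale, while in the row of lactate dehydrogenase LDHA and LDHB are both bright.

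The split between isoforms recurred in the mitochondria. Of 45 genes of mitochondrial oxidation 20 were bright (44.4%) and 6 near the floor. The ubiquitous subunits of cytochrome oxidase COX6A1 (13.96), COX8A (13.88), COX4I1 (12.19) and COX7A2 (9.64) were bright. Their tissue-restricted counterparts COX4I2 (3.39), COX7A1 (2.85) and COX8C (2.58) were near the floor, and COX6A2, named after its value was seen, had 3.90. PDHA1, the somatic pyruvate dehydrogenase subunit, had a log2 signal of 10.12 against 3.40 for PDHA2, that of testis. ATP5F1B, the catalytic subunit of ATP synthase, was highest at 16.36. PPARGC1A, a regulator of mitochondrial number, was near the floor at 3.39, and so was UCP1, the uncoupling protein of brown fat, at 2.61.

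In sugar transport, gluconeogenesis and the pentose phosphate pathway 4 of 29 genes were bright and 12 near the floor. The shares were 13.8% and 41.4%, beside 11.3% and 36.4% of protein-coding genes. SLC2A1, the widespread glucose transporter GLUT1, had 12.07, and SLC2A2, the GLUT2 of liver and enterocytes, 2.82. The pentose phosphate enzymes TALDO1 (13.92), PGD (13.34) and TKT (10.12) were bright, while TKTL1 and TKTL2, relatives of TKT, had 2.99 and 3.04. The mitochondrial PCK2 had a log2 signal of 5.08 and the cytosolic PCK1 of gluconeogenic tissues 3.24.

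Of 36 lipid genes 5 were bright and 9 near the floor. HADHA, of mitochondrial fatty acid oxidation, had 12.68. ACLY, which makes cytosolic acetyl-CoA, had 12.12, SCD, the stearoyl-CoA desaturase, 11.26, and SQLE and DHCR7, of cholesterol synthesis, 10.20 and 10.02. FASN, the fatty acid synthase, had a log2 signal of 9.06. CPT1A, the carnitine palmitoyltransferase of liver and most tissues, had 8.77 and CPT1B, that of muscle, 4.75. LPL, which acts in capillaries, and MOGAT2, which rebuilds fat in enterocytes, were near the floor at 2.82 and 2.89.

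Amino acid, one-carbon and nucleotide metabolism held 19 bright genes of 48 (39.6%) and 10 near the floor. ODC1, the first enzyme of polyamine synthesis, had 14.88 and PSAT1, of serine synthesis, 14.28, whereas PHGDH, the step before PSAT1, had 6.48. Of 10 amino acid transporters 7 were bright, 2 lay between the thresholds and 1 was near the floor. The bright ones were SLC38A1 (13.56), SLC7A5 (13.29), SLC38A2 (13.14), SLC1A5 (10.80), SLC3A2 (10.21), SLC7A11 (9.98) and SLC7A1 (9.87), and SLC6A14, named after its value was seen, had 2.92. MTHFD1 and MTHFD2, of folate metabolism, had log2 signals of 13.35 and 11.63, and TYMS, the thymidylate synthase that fluorouracil inhibits, 11.64. The urea cycle enzymes of liver CPS1 (2.83) and OTC (2.61) and the tryptophan-degrading IDO1 (2.85) and TDO2 (2.88) were near the floor. ARG2, the mitochondrial arginase, had 8.44 against 3.09 for ARG1, that of liver, and BCAT2 had 7.35 against 2.80 for BCAT1; the paralogs ARG1, ARG2 and BCAT2 were named after their values were seen.

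Of 54 genes of detoxification and redox control 13 were bright (24.1%) and 16 near the floor. Highest were genes of thiol and oxidant defence, with PRDX1, a peroxiredoxin, at 17.02, TXN, thioredoxin, at 15.90, NQO1, a quinone reductase, at 14.18 and SOD1, the cytosolic superoxide dismutase, at 13.65. GSTP1, the glutathione transferase of many epithelia, had a log2 signal of 13.24, and GSTA1, that of liver and small intestine, 2.84. ABCB1, the drug efflux pump P-glycoprotein, had 10.30. Of 16 cytochrome P450 genes 1 was bright, 8 lay between the thresholds and 7 were near the floor. CYP51A1, of cholesterol synthesis, had 10.46, CYP1B1, which oxidises aromatic compounds, 8.92 and CYP3A5, a drug-metabolising form, 3.03. GPX2, the gut glutathione peroxidase, had 3.80, and DPYD, which degrades fluorouracil, was near the floor at 2.88.

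Of 23 proliferation genes 20 were bright (87.0%) and 0 near the floor. MKI67, the antigen Ki-67, had a log2 signal of 14.66 (percentile 99.3), CCNA2, cyclin A2, 14.10, TOP2A, the topoisomerase of dividing cells, 13.79 and CCNB1, the mitotic cyclin, 13.11. PCNA, the sliding clamp of DNA replication, had 11.56. The members under the bright threshold were AURKB (8.99), MCM2 (8.26) and E2F1 (6.13). RRM2, a subunit of ribonucleotide reductase, was bright by 1 probe set at 11.31, and its other probe set had 3.49.

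Of 33 mismatch repair and tumour suppressor genes 5 were bright and 8 near the floor, with 5 more listed genes not analysed here. The shares were 15.2% and 24.2%, beside 11.3% and 36.4% of protein-coding genes. RB1, the retinoblastoma gene, had 11.25, EXO1, an exonuclease of mismatch repair, 10.04, and ARID1A, a chromatin remodeller subunit, 9.64. MSH6, a mismatch recognition subunit, had a log2 signal of 6.81. Near the floor were CDKN2A (3.53), an inhibitor of cyclin D kinases, MGMT (3.37), which repairs alkylated guanine, and SFRP1. NEUROG1 (2.91), CACNA1G (3.16) and SOCS1 (2.34), whose promoters are used to score the CpG island methylator state of colorectal tumours, were near the floor too. Their methylation was not measured on this array, and an RNA level does not report whether the encoded protein is intact.

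Of 28 antigen presentation and checkpoint genes 3 were bright and 8 near the floor. The bright share of 10.7% was near the 11.3% of protein-coding genes, and 28.6% were near the floor against 36.4%. B2M, the light chain of class I molecules, had 10.36, MICB, a stress ligand of natural killer cells, 9.81, and TAPBP, a peptide-loading chaperone, 9.75. Probe sets of TAPBP (8.86 to 9.75, median 9.08) and of MICB (8.98 to 9.81, median 9.60) fell on both sides of the bright threshold. HLA-C and HLA-E, class I heavy chains, had log2 signals of 9.43 and 8.44, and TAP1, the peptide transporter, 6.39. The HLA-C probe sets ran from 7.87 to 9.43. Of the 5 class II genes in this list 3 were near the floor, HLA-DRA (3.18), HLA-DQA1 (3.17) and HLA-DPA1 (2.84). HLA-DMA (5.29) and HLA-DRB1 (4.93), named after their values were seen, lay above it. The other HLA-DRB1 probe set was near the floor at 3.21. Class II symbols outside the list with several probe sets were read by their highest and named after their values were seen. HLA-DPB1 (3.09), HLA-DQA2 (3.12), HLA-DQB1 (3.13), HLA-DOA (3.14), HLA-DRB4 (3.30), HLA-DOB (3.39), HLA-DQB2 (3.63) and HLA-DPB2 (3.63) were near the floor. HLA-DMB (3.90) and HLA-DRB6 (3.69) lay above it. The invariant chain CD74 (3.14) and the class II activator CIITA (3.26) were near the floor. The checkpoint ligands CD47, CD276 and CD274, the last of these PD-L1, had 8.61, 7.37 and 5.35, and PDCD1LG2, PD-L2, had 2.95.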

How the data were processed

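RNA of 3 transfected DLD1 cultures was measured on Affymetrix whole-transcript arrays, 1 per group, with 500 ng of RNA each. The authors deposited log2 values made with RMA in Affymetrix Expression Console, per the submitters' processing notes; no version is given in the sources used here. RMA subtracts a modelled background, forces the arrays to 1 distribution and combines the probes of a set, which ties each array to the others. Of 67528 probe sets 315 lay above 16 on the control array and 30 held the top value of 19.93, which equals log2 of 1000000, so a further transformation is possible and not stated.

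The platform annotation, which can be old, gave 1 symbol to 23781 probe sets, several to 1543 and none to 42204, and 306 symbols were updated with a RefSeq table of GRCh38.p14, which listed 22407 of 22411 genes. Detection calls were not used. The members, 32 gene lists and 20 families were chosen with earlier results of these data known. Lists of up to 12 measured genes could be named whole, and longer ones by preset anchors, the 6 brightest, the 6 dimmest and the bright band. Isoforms in the plot of isoenzymes outside that rule were chosen after their values were seen. The lineage count joins the lineage lists and all families other than olfactory and taste receptors. The banding code was run on simulated data whose low and high genes were set apart. The array has no such gap, so that run does not bear on genes near a threshold. Alternatives were the probe set choice, the genes counted and both thresholds. No test was run on 1 array. Python 3.11.15, numpy 2.4.6, pandas 2.3.3 and matplotlib 3.10.9 were used.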

Additional observations from a re-analysis of the deposited data

How the results depend on the processing

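Counts of bright and near-floor genes, over all genes and over the lineage, signalling, receptor and metabolic lists, were recomputed under 8 alternatives, and 67 of 80 values stayed within 1.5 times. The other 13 followed from a moved threshold. The tally holds values that could not move. A moved floor cannot change a bright count, nor a moved bright threshold a near-floor count. The bright share of all genes is set by its definition. With bright set at the top 5% (log2 10.86), the bright genes numbered 1121 in place of 2248 over all genes, 19 in place of 37 among lineage genes, 9 in place of 19 among signalling genes, 5 in place of 12 among receptors and 43 in place of 70 among metabolic genes. With the top 15% (log2 8.59) they numbered 3375, 56, 41 and 21 in the first 4 of these sets. With the floor at the 99th percentile of olfactory receptors (4.99), or at log2 5, the near-floor genes numbered 113 in place of 74 among signalling genes and 92 in place of 60 among metabolic genes. Taking the median over the probe sets of a symbol moved 215 genes to another band and 65 into or out of the bright band. No paired analysis was possible because only 1 array was described and no test was run. A dim signal cannot be told from none, and 3570 genes lay between the floor threshold and log2 5.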

Other observations

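Kinds of gene differed in their bands, where 10% of all genes were bright and 41.4% near the floor. Of 1937 long noncoding RNA genes 21 (1.08%) were bright and 1366 (70.5%) near the floor. The bright ones included MALAT1 (15.02), a nuclear RNA of most cells, NORAD (11.88), which binds Pumilio proteins, AFAP1-AS1 (12.19), SNHG8 (11.30), a small nucleolar RNA host, and CCAT1 (10.17), a transcript known from colorectal tumours; they were named after their values were seen. Of 240 small nucleolar RNA genes 63 (26.2%) were bright. The brightest noncoding genes were RN7SL1, the signal recognition particle RNA, and SNORD13, both at the top log2 signal of 19.93, with RN7SK, which holds back the elongation factor P-TEFb, at 19.83. Of 1041 microRNA genes 35 were bright, and MIR548D1 (19.90) and MIR548AD (19.66) led them. Whether their probe sets read the mature RNA, the precursor or repeated sequence was not tested. Of 155 immunoglobulin and T cell receptor V segments 0 were bright and 124 (80%) were near the floor.

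Among 32 cancer germline genes, which are normally used in testis or embryo, 28 were near the floor. The highest was IGF2BP3, an RNA-binding protein of fetal tissue, at a log2 signal of 8.24, then MAGEA3 at 5.24 and its near-identical neighbour MAGEA6 at 4.03. PRAME (3.07), LIN28B (3.02) and POU5F1 (3.60) were near the floor.

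Of 26 taste receptor genes 13 were above the floor, with TAS2R30 at 8.86, TAS2R14 at 7.17 and TAS2R4 at 6.97, and several bitter receptors are close in sequence. Among the olfactory receptor genes OR7G1 stood apart at 10.66, and the next was OR8B12 at 5.77.

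Probe sets of 1 symbol were in more than 1 band for 133 of 528 genes, and 40 of the 528 ranged over 5 log2 units or more. SLC44A4, a choline transporter family member of epithelia, ranked next to EEF1A1 among protein-coding genes at 19.11, but 7 of its 8 probe sets had 4.20 to 4.29. TMBIM6 had 14.56 and 3.65, and IPO7 15.55 and 6.21. BCYRN1, a neuronal noncoding RNA related to Alu repeats, had 17.06 and 2.74. These genes were named after their values were seen.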
